A study of Homo sapiens with 32 samples.

Results

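The nuclear genes that encode subunits of respiratory chain complexes I to IV were followed here as a group of 57 genes. They were chosen by name from the known make-up of the complexes, with earlier results of these data known. All 57 were found among the 58721 genes of the deposited expression tables. The group holds 6 core and 30 accessory subunits of complex I, 4 subunits of complex II, 7 of complex III and 10 of complex IV. Subunits encoded by mitochondrial DNA, ATP synthase subunits, assembly factors and isoforms restricted to other tissues were kept out of the group and used only for comparison.

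The samples were HEK293T cells, an established human embryonic kidney line. RNA-Seq was made from cells labelled WT for eIF3d and from cells labelled DD, in which S528D and S529D replace 2 serines of eIF3d by aspartate. Both were treated with 600 nM thapsigargin (Tg) for 16 h or with the solvent DMSO, which gave 4 groups of 2 libraries. Thapsigargin empties the calcium store of the endoplasmic reticulum by inhibiting its pump, which starts the integrated stress response. Subunit-Seq was made from HEK293T cells with HA-eIF3d-TEV, a tagged eIF3d from which TEV protease releases the domain that binds the mRNA cap. The RNA held by that domain after an anti-HA immunoprecipitation (IP) was sequenced beside input RNA, in DMSO and in the same Tg treatment, again with 2 libraries per group. m6A-eCLIP, which maps N6-methyladenosine (m6A) in RNA, gave 1 list of sites per genotype and treatment. The labels do not say how the tagged and DD forms were introduced, how much native eIF3d remained or whether each line was a single clone. They also do not say that replicates came from separate cultures, so p-values measure only the spread between these samples, which may be technical. In Subunit-Seq the spread used was that of genes of like level, not that of each gene.

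The respiratory chain passes electrons from NADH (complex I) and succinate (complex II) through ubiquinone to complex III, and by way of cytochrome c to complex IV, where oxygen is reduced to water. Complexes I, III and IV pump protons across the inner mitochondrial membrane, and complex II, which is also succinate dehydrogenase of the citric acid cycle, does not. The core subunits of complex I encoded in the nucleus carry its flavin and iron-sulphur clusters, and the accessory subunits surround them. Nuclear subunits are translated in the cytosol and imported, whereas the catalytic centres of complex IV and the membrane core of complex I are encoded by mitochondrial DNA. Complexes I, III and IV therefore need the products of both genomes, and complex II is encoded by nuclear genes alone.

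EIF3D itself was present in each library, at 29.2 to 91.2 RPKM in RNA-Seq and 37.6 to 257 RPKM in Subunit-Seq, and reads of the introduced and native forms could not be separated. RPKM is the read number scaled by the authors to gene length and library size. The reads behind the values numbered 4508483 to 10163214 per RNA-Seq library and 5102852 to 16860637 per Subunit-Seq library. The 57 genes took 0.386% of RNA-Seq reads in DD Tg replicate 2 (95% Wilson interval 0.381 to 0.391, counting error only) and up to 1.11% in DD DMSO replicate 2. In DD Tg replicate 2 the mitochondrial ribosomal RNAs took 57.3% of reads, the highest share in RNA-Seq, where the lowest was 25.4%. Input DMSO replicate 2 stood apart in Subunit-Seq, with 6395 genes at 1 RPKM or more against 8503 to 11452 in the other inputs. The main results that rest on these 2 libraries are also given without them. Of 10 markers used for HEK293T cells, 4 to 7 reached 1 RPKM in each RNA-Seq library. VIM, NEFL, NEFM, INA, CDH2 and NES had RNA-Seq means of 1.94 to 33.3 RPKM, and PAX2, LHX1, GATA3 and EPCAM means of 0.03 to 0.60 RPKM. The summed level of the 10 was 132 to 199 RPKM in first replicates and 27.5 to 46.4 RPKM in second replicates. Of 12 markers of other cell types, 0 to 2 reached 1 RPKM in RNA-Seq, with a summed level of 1.75 to 29.0 RPKM. COL1A1 (mean 8.06 RPKM) and COL3A1 (mean 3.23 RPKM) were the highest, and PTPRC, CD3E, LYZ and INS were at 0. COL1A1 led this list in each first replicate, at 13.2 to 19.0 RPKM, and in no second replicate.

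The respiratory chain genes were abundant mRNAs in these cells. Their median level over the 8 RNA-Seq libraries was 42.4 RPKM, against 3.49 RPKM for the 9637 genes tested. Complex IV genes stood highest, with a median of 139 RPKM, followed by complex III (89.1 RPKM), complex I accessory subunits (40.8 RPKM), complex I core subunits (16.2 RPKM) and complex II (10.6 RPKM). Within each complex the levels covered a wide range, from COX6A1 at 22.0 to COX5B at 258 RPKM in complex IV, from UQCRC2 at 18.9 to UQCRH at 346 RPKM in complex III and from SDHC at 2.85 to SDHB at 37.8 RPKM in complex II. Subunits of 1 complex, which mostly occur in equal numbers in the assembled enzyme, were therefore far apart in mRNA level per length.

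The highest level of all 57 was that of NDUFS5, an accessory subunit of the membrane arm of complex I, with a mean of 469 RPKM. Its values in WT cells were 594 and 378 RPKM with DMSO and 348 and 292 with Tg, and in DD cells 486 and 719 with DMSO and 655 and 276 with Tg. UQCRH, the hinge protein of complex III, had 286 and 321 RPKM (DMSO) and 229.8 and 298 RPKM (Tg) in WT cells, and 368 and 675 (DMSO) and 441 and 145 (Tg) in DD cells. For both genes DD DMSO replicate 2 gave the highest value and DD Tg replicate 2 the lowest. The values of 1 gene thus ranged over more than the distance between neighbouring medians in the order of the complexes, and that order was not tested.

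Complex II was the smallest and lowest group. SDHA, the flavoprotein that oxidises succinate, had 5.62 and 6.38 RPKM with DMSO and 5.19 and 10.3 with Tg in WT cells, and 4.51 and 14.6 with DMSO and 7.65 and 4.54 with Tg in DD cells. SDHB, the iron-sulphur subunit, was the most abundant, with 36.6 and 32.0, 26.9 and 56.7, 45.1 and 44.4, and 46.3 and 14.4 RPKM in the same order of groups. The membrane anchor SDHC lay between 1.39 and 4.37 RPKM in all 8 libraries. The other anchor, SDHD, separated by replicate number more than by group: its 4 first replicates had 17.3 to 26.4 RPKM and its 4 second replicates 5.64 to 6.64 RPKM.

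A few members were at or near 0. The complex I genes NDUFA7, NDUFA9, NDUFA11, NDUFA13, NDUFS7 and NDUFV2 had a mean under 1 RPKM and were not tested in RNA-Seq, which left 51 of 57. NDUFA13 (0.0583 RPKM) and NDUFV2 (0.0984 RPKM), an accessory and a core subunit, had at most 4 and 6 reads in any RNA-Seq library. NDUFA7 had at most 8. Since each cell with a working complex I needs these subunits, the values are given only as listed. In the RefSeq annotation of GRCh38, 21 of the 57 genes overlap another gene, among them NDUFV2 with the antisense gene NDUFV2-AS1, NDUFB11 with RBM10, NDUFA3 with TFPT, and NDUFC2 with the readthrough gene NDUFC2-KCTD14. The RNA-Seq kit is not described as strand-specific, and how the authors assigned shared reads is not given in the sources used here, so values of these genes are uncertain. Of the isoforms restricted to other tissues, NDUFA4L2 had a mean of 1.20 RPKM, and COX4I2, COX6A2, COX6B2, COX7A1, COX7B2 and COX8C lay between 0.00 and 0.20 RPKM.

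**Figure D1:**
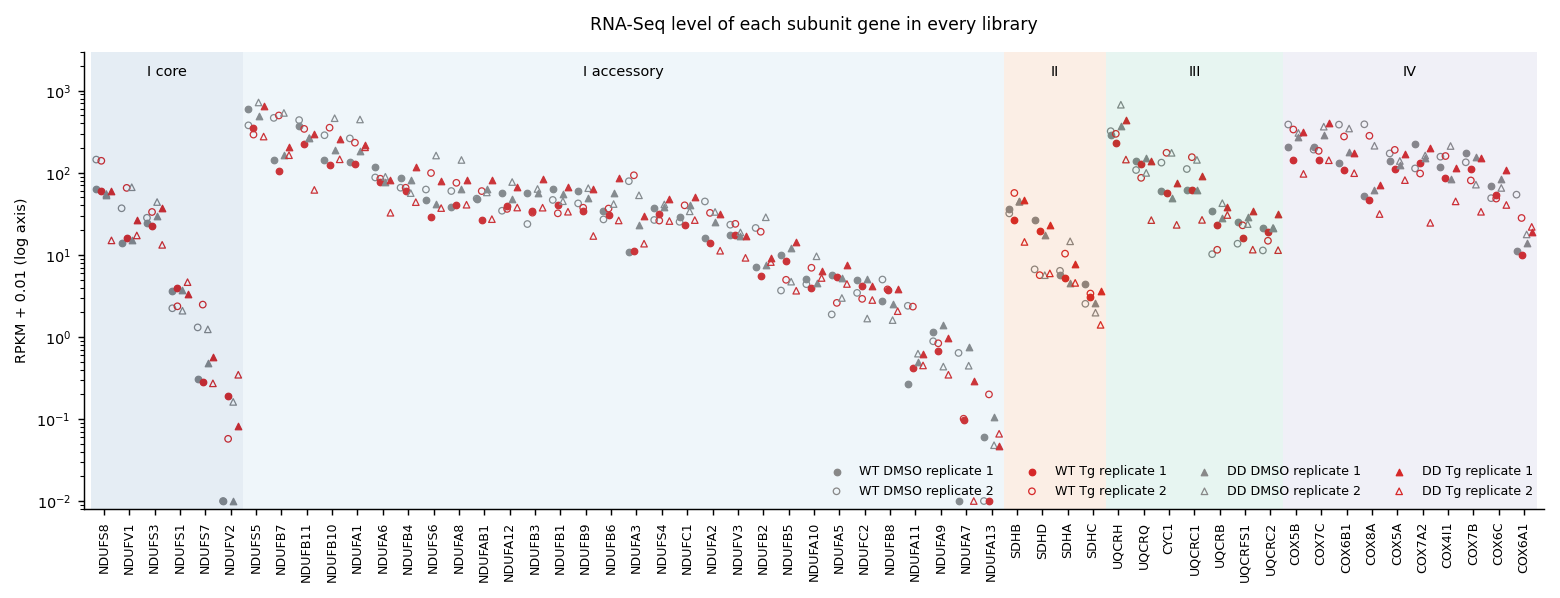
RPKM of each of the 57 subunit genes in the 8 RNA-Seq libraries on a log axis (RPKM + 0.01), ordered by complex. Grey marks DMSO and red Tg, circles WT and triangles DD, filled symbols replicate 1 and open symbols replicate 2. Most genes of complexes III and IV lie above those of complex II, and the points of 1 gene differ by replicate and library as much as by treatment.

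In unstressed cells, most respiratory chain mRNAs were less abundant in the eIF3d IP than in the input, relative to other mRNAs. The median log2 difference of IP against input in DMSO was -0.60 for the 53 genes tested and 0.96 for all 9813 genes tested. The median of the members therefore lay 1.57 below that of all genes, a relative value of -1.57 on the log2(RPKM + 1) scale. From replicate 1 alone it was -0.70, from replicate 2 alone -2.45, and without input DMSO replicate 2 it was -1.07. Of the 53 members, 50 lay below the all-gene median in the fit, and 45 did so in both replicates, against 32.7% of all genes. RPKM shows shares of a library, not amounts of RNA bound. The mitochondrial ribosomal RNAs took 0.286% to 0.705% of reads in the IPs and 4.64% to 20.4% in the inputs. Of the 12 markers of other cell types, 1 to 4 reached 1 RPKM in each IP and 0 to 2 in each input, with summed levels of 3.56 to 60.1 RPKM in the IPs and 1.11 to 5.91 RPKM in the inputs. The part of either in the result was not tested.

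Per gene, limma called 3 members lower in the IP than in the input (1.75% of all genes were called lower) and 2 higher (21.4% of all genes were called higher), at a Benjamini-Hochberg adjusted p under 0.05. The lower ones were NDUFB11, COX5B and NDUFA3. The higher ones were SDHA and NDUFS1. These 5 calls depend on the replicate number as a block in the fit: without it limma called 0 members and 24 of all genes, with adjusted p-values of 0.114 to 0.136 for the 5. They depend on single libraries too. Without input DMSO replicate 2, 0 members and 0 of all genes were called, without IP DMSO replicate 2, 0 members and 92 genes, without input DMSO replicate 1, 9 members, and without any other library 1 or 2 members. Voom on the recovered reads called 0 members and 666 of all genes. An unadjusted limma p under 0.05 was found for 3 members higher and 8 lower, and for 3727 genes higher and 315 lower among all 9813.

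NDUFB11 (ENSG00000147123.10, chrX:47142216-47145491 in GRCh38) encodes an accessory subunit of the membrane arm of complex I. Its levels were 450.1 and 769 RPKM in the DMSO inputs and 153 and 211 RPKM in the DMSO IPs, from 2349 to 15932 reads. Both IP values lay under both input values, with a log2 difference of -1.70 ± 0.53 (SE of the fit, 2 against 2 libraries, limma adjusted p = 0.0142), or -1.68 without input DMSO replicate 2. COX5B (ENSG00000135940.6, chr2:97646062-97648383), a subunit of complex IV on the matrix side that binds zinc, had 402 and 609.8 RPKM in the inputs and 158 and 159.8 in the IPs. Its difference was -1.64 ± 0.54 (limma adjusted p = 0.0212), or -1.60 without that library, and the groups again did not overlap. NDUFA3 (ENSG00000170906.15, chr19:54102855-54107568), a small membrane subunit of complex I, had 105 and 169 RPKM in the inputs and 41.3 and 40.0 in the IPs, a difference of -1.68 ± 0.64 (limma adjusted p = 0.0426), or -1.56 without that library. The sizes of these 3 differences moved little, while the limma adjusted p without that library was 0.345 for each.

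SDHA (ENSG00000073578.16, chr5:218320-268746) went the other way, with 12.9 and 3.02 RPKM in the inputs and 23.1 and 26.0 in the IPs. Its difference was 1.77 ± 0.66 (limma adjusted p = 0.0392), or 0.83 without input DMSO replicate 2. NDUFS1 (ENSG00000023228.13, chr2:206114817-206159444), the large iron-sulphur subunit of complex I, had 3.73 and 0.614 RPKM in the inputs and 6.27 and 9.25 in the IPs. Its difference was 1.64 ± 0.63 (limma adjusted p = 0.042), or 0.78 without that library, in which it had 110 reads. For both genes the low value of input DMSO replicate 2 widened the distance. Both calls were also lost when libraries were scaled by median ratios, with limma adjusted p = 0.191 for SDHA and 0.167 for NDUFS1. Over all alternatives the limma adjusted p ran from 0.00722 to 0.582 for SDHA and from 0.00853 to 0.612 for NDUFS1. That scaling lowered the all-gene median from 0.96 to 0.28 and the share of calls that were higher from 92.4% of 2272 to 47.0% of 345 genes, while 6 members were called, all lower.

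The IP and input values of 30 members (56.6%) did not overlap and were lower in the IP, against 6.76% of all genes. The values of 8 members, NDUFA5, NDUFA10, NDUFA11, NDUFC2, NDUFS1, SDHA, SDHD and UQCRFS1, did not overlap and were higher in the IP, against 56% of all genes. Without input DMSO replicate 2, a check chosen after seeing the data, 37 members were lower (18.5% of all genes) and 10 higher (58.0%). UQCRFS1 is the Rieske iron-sulphur protein of complex III, NDUFA5 lies in the arm of complex I that reaches into the matrix, and NDUFA10 and NDUFC2 are accessory subunits of its membrane arm.

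By complex, the distance to all genes was widest for complex IV, with a relative median of -1.90 in DMSO (-1.06 and -2.78 in replicates 1 and 2). All 10 complex IV genes lay below the all-gene median in both replicates. Complex I accessory subunits followed at -1.57, with 23 of 27 below in both replicates, then complex I core subunits at -0.95, complex III at -0.87 and complex II at -0.43. Without input DMSO replicate 2 the values were -1.32 for complex IV, -1.11 for complex I accessory subunits, -0.81 for core subunits, -0.93 for complex III and -0.38 for complex II. Differences between complexes were not tested. Within complex IV the differences ran from -1.64 for COX5B to -0.41 for COX6A1, whose inputs (20.8 and 44.0 RPKM) and IPs (23.1 and 22.1 RPKM) overlapped. COX7B, which is needed early in the assembly of complex IV, had 118 and 222 RPKM in the inputs and 74.9 and 73.7 in the IPs. COX7A2 had 225 and 358 in the inputs and 125 and 93.5 in the IPs, and COX6B1 496 and 576 in the inputs and 285 and 255 in the IPs.

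After thapsigargin the same side of the all-gene median was seen. The relative median of IP against input in Tg was -1.34 (-1.75 and -0.91 in replicates 1 and 2), from -0.47 for the members and 0.87 for all genes. Of the 53 members, 50 lay below the all-gene median in the fit and 44 did so in both replicates, against 34.2% of all genes, and 0 lay above it in both, again against 34.2%. Complex IV was lowest once more, with -1.73 and all 10 genes below in both replicates. Complex III stood at -1.32, complex I accessory subunits at -1.31, complex I core subunits at -0.80 and complex II at -0.35.

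In Tg, limma called 1 member lower, NDUFB11 (1.62% of all genes were called lower), and 0 higher (14.6% of all genes). At an unadjusted p under 0.05 there were 7 members lower and 0 higher, and 271 genes lower and 3152 higher among all 9813. Voom called 0 members and 191 of all genes, and limma without the replicate block 0 members and 36 genes. The call was also lost without any 1 of the 4 Tg libraries. NDUFB11 had 414 and 529 RPKM in the Tg inputs and 88.6 and 228 RPKM in the Tg IPs, a difference of -1.71 ± 0.53 (limma adjusted p = 0.0164). Its groups did not overlap in either treatment, and the differences in DMSO and Tg were nearly the same size. CYC1, cytochrome c1 of complex III, came closest among the others, with 201 and 342 RPKM in the inputs and 98.8 and 85.0 in the IPs (log2 difference -1.51 ± 0.58, limma adjusted p = 0.0543). COX5B (-1.26) and NDUFS8 (-1.39), an iron-sulphur core subunit of complex I, had limma adjusted p-values of 0.0855 and 0.0957. SDHA had 6.83 and 9.32 RPKM in the inputs and 19.7 and 16.3 in the IPs, which did not overlap, with a difference of 1.07 ± 0.66 (limma adjusted p = 0.225). NDUFC2, the member with the highest difference in Tg, had 1.70 and 2.26 against 3.09 and 10.3 RPKM (1.19 ± 0.62, limma adjusted p = 0.15).

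Values of 20 members were lower in the Tg IPs without overlap, against 6.35% of all genes, and those of 8 members were higher, against 64.7%. The 8 were NDUFA5, NDUFA10, NDUFC2, NDUFS1, NDUFV1, SDHA, SDHC and SDHD. NDUFV1 binds the flavin that accepts electrons from NADH. With median-ratio scaling, 49.5% of 305 calls over all genes were higher in Tg, against 90.0% of 1591 with the deposited values.

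**Figure D2:**
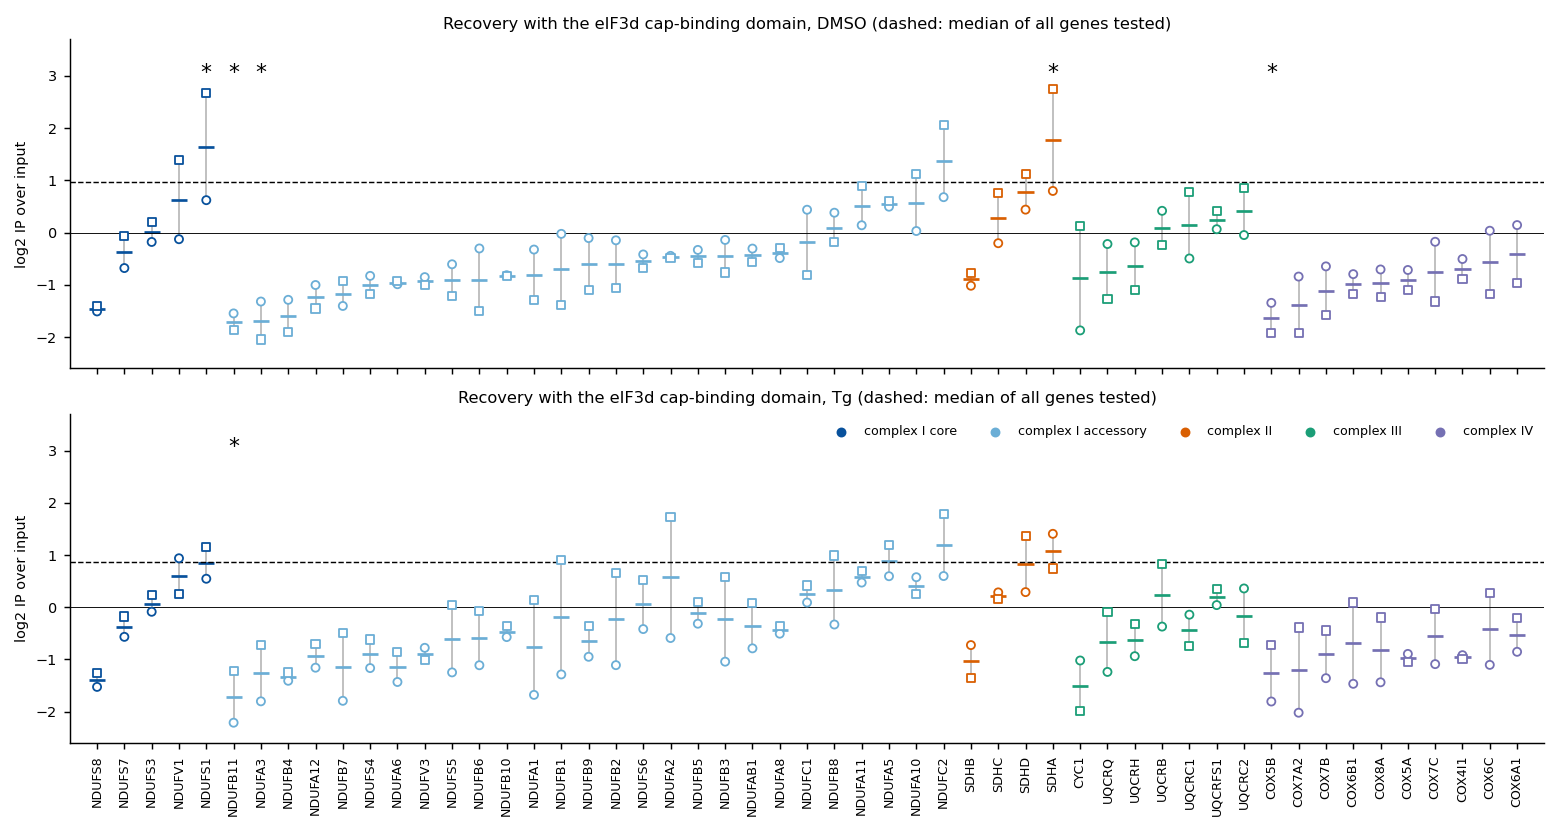
Log2 difference of IP against input for the 53 subunit genes tested, in DMSO and in Tg, by complex. Dashes are the fit, circles replicate 1 and squares replicate 2. The dashed line is the median of all genes tested in that treatment (0.96 in DMSO, 0.87 in Tg), and stars mark genes with a limma adjusted p under 0.05. Most points lie below the line, and complex IV genes lie below it throughout.

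Gene length went along with these differences. Across genes, which are not independent replicates, Spearman's rho between recovered length and the IP against input difference in DMSO was 0.484 over 9800 genes and 0.555 over the 53 members. In Tg it was 0.385 and 0.474. The members are short: their median length is 2263 bases, against 3865 for genes tested in RNA-Seq, with complex IV shortest at 1681.5 and complex II longest at 5610.5 bases. SDHA (8383 bases) and NDUFS1 (12268 bases), the members called higher, are long, whereas NDUFB11 (1418 bases), COX5B (1441 bases) and NDUFA3 (2475 bases), the members called lower, are shorter than most genes.

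Within length classes the members still lay below other genes in most cases. Among genes under 2000 bases the median difference in DMSO was -0.87 for 27 members and 0.02 for 2261 genes, and 26 of the 27 lay below the median of their class. From 2000 to under 5000 bases it was -0.60 for 15 members and 0.98 for 3911 genes, with 14 of 15 below. At 5000 bases or more it was 0.41 for 11 members and 1.30 for 3628 genes, with 9 of 11 below. In Tg the counts below the class median were 24 of 27, 14 of 15 and 11 of 11. The members were also more abundant than other genes, with a median input level of 60.1 RPKM against 3.95 RPKM for the genes tested. At 1 RPKM or more the IPs held 12945 to 13799 genes and the inputs 6395 to 11452. The part of length, level or this number of genes in the result was not tested.

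**Figure D3:**
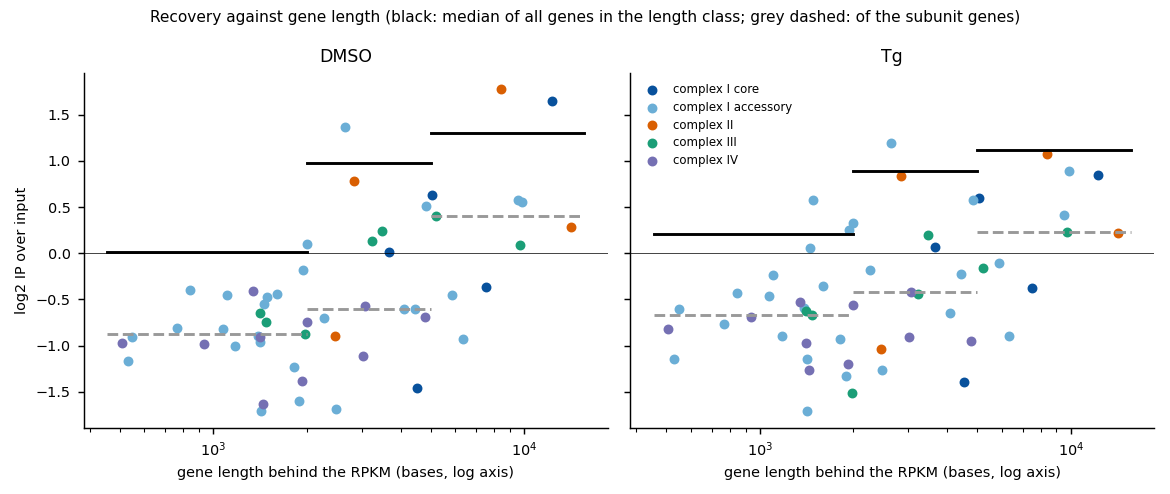
Log2 difference of IP against input plotted against gene length in bases (log axis) for the 53 subunit genes, in DMSO and in Tg. Black lines are the medians of all genes in 3 length classes and grey dashed lines those of the subunit genes. Both rise with length in each panel, and the grey lines stay below the black ones.

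Thapsigargin was also compared within the inputs and within the IPs. Between inputs the members' relative median was -0.48 in Tg against DMSO (-0.13 and -0.96 in replicates 1 and 2), and -0.11 without input DMSO replicate 2. No member was called: limma gave 0 higher (0.051% of all genes) and 0 lower (0% of all genes), with 1 member, NDUFS5, under an unadjusted p of 0.05 and 0 called by voom. NDUFS5 had 1071 and 1205 RPKM in the DMSO inputs and 637 and 579 in the Tg inputs, a difference of -0.90 ± 0.46. Values of 25 members were lower in the Tg inputs without overlap, against 8.23% of all genes, and 0 were higher, against 6.39%. Without input DMSO replicate 2 34 members were lower, but also 61.8% of all genes, and 2 were higher (8.16% of all genes).

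Between IPs the relative median of the members was -0.30 in Tg against DMSO, with -0.85 in replicate 1 and 0.15 in replicate 2. limma called 0 members higher (0.051% of all genes) and 0 lower (0.0204%), 0 members had an unadjusted p under 0.05, and voom called 0. Values of NDUFA8, NDUFA10, SDHA and SDHC were lower in the Tg IPs without overlap, 4 members against 7.48% of all genes, and those of NDUFV1 were higher, 1 member against 18.1%. SDHA had 23.1 and 26.0 RPKM in the DMSO IPs and 19.7 and 16.3 in the Tg IPs. The change of the IP against input difference with Tg had a relative median of 0.13 (-0.80 and 1.27 in the replicates). As an interaction in limma it called 0 members higher (0% of all genes) and 0 lower (0.0611%), with 0 members under an unadjusted p of 0.05 and 0 called by voom. The 2 replicates pointed opposite ways, the relative median was -0.23 without input DMSO replicate 2, and a difference of eIF3d recovery between treatments was not detectable for these genes.

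Other mitochondrial gene lists gave a frame for the IP values. ATP synthase subunits, which use the proton gradient the chain builds, had relative medians of -1.22 in DMSO and -1.08 in Tg, with 0 of 16 called. The mRNAs of mitochondrial DNA, which are translated inside the organelle, had -1.22 in both. Of these 13, 2 were called higher and 3 lower in DMSO, with MT-ATP8 furthest at 2.05, and 2 were called lower in Tg, with MT-CO3 furthest at -1.26. Assembly factors of the respiratory chain had -0.43 and -0.50, with 3 of 40 called higher in DMSO (COX15 at 2.07) and 2 in Tg (LYRM7 at 2.16). Regulators of mitochondrial biogenesis stood near the all-gene median, at 0.18 and 0.01, with YY1 of 10 genes called higher in both (2.01 and 2.11), and citric acid cycle enzymes at -0.11 and -0.78. The structural subunits of the chain and of ATP synthase thus had lower medians than the factors that assemble or regulate them. Differences between these lists were not tested.

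In RNA-Seq of WT cells, no respiratory chain gene passed the test after 16 h of thapsigargin. The members' median lay below that of other genes in both replicates, but not in every fit without 1 library. limma called 0 of 51 members higher or lower and 0 of all 9637 genes (0% in each direction). At an unadjusted p under 0.05 there were 0 members and 10 genes higher and 14 lower among all genes, and voom called 0. The members' median log2 difference was -0.14 and that of all genes 0.12, a relative median of -0.26 (-0.31 and -0.21 in replicates 1 and 2). It was 0.06 without WT DMSO replicate 2, 0.19 without WT Tg replicate 1, -0.45 without WT DMSO replicate 1 and -0.52 without WT Tg replicate 2. Its direction thus turned with 2 of the 4 libraries. These fits had no replicate block, so leaving out 1 library also set unequal replicate numbers against each other. Same-numbered WT DMSO and WT Tg libraries deviated together (correlation across genes 0.864). The part of this in the turn was not tested. In both replicates 29 members lay below the all-gene median and 3 above it, against 27.1% of all genes for each. In bulk libraries a lower value can come from fewer cells of a type or from less RNA per cell, and these cannot be told apart.

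The values of 8 members did not overlap between WT DMSO and WT Tg and were lower in Tg, against 3.73% of all genes, and 0 were higher, against 6.55%. They were the complex I genes NDUFA6, NDUFB1, NDUFB4, NDUFB9, NDUFB11 and NDUFS5 and the complex IV genes COX7B and COX7C. COX7B had 174 and 134 RPKM in DMSO and 113 and 80.6 in Tg, the largest difference among members at -0.67 ± 0.91. NDUFS5, with the values given above, had -0.57 ± 0.80. NDUFB11 had 374 and 438 RPKM in DMSO and 222 and 342 in Tg, a difference of -0.55. Within replicates 1 and 2 the differences were -0.62 and -0.73 for COX7B, -0.77 and -0.37 for NDUFS5, and -0.75 and -0.36 for NDUFB11. With the replicate number as a block the SE was 0.67 for COX7B, 0.70 for NDUFS5 and 0.81 for NDUFB11, with a limma adjusted p of 1 for each, and 0 members had an unadjusted p under 0.05.

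Complex IV again stood furthest from other genes in WT Tg, with a relative median of -0.45 (-0.40 and -0.45 in the replicates) and all 10 genes below the all-gene median in both. It was 0.12 without WT DMSO replicate 2 and 0.17 without WT Tg replicate 1, in fits with no replicate block. Within it COX7B was lowest, COX5B stood at -0.36 and COX5A, which like COX5B sits on the matrix side of the enzyme, was highest at -0.09. UQCRH, the most abundant gene of complex III, stood at -0.21. Complex I accessory subunits had -0.26, complex III -0.07, complex I core subunits -0.05 and complex II -0.05 (-0.41 and 0.22 in the replicates). The highest member was NDUFV1, at 0.50 ± 0.97. In the same contrast the mRNAs of mitochondrial DNA had a relative median of 0.55, ATP synthase -0.25, assembly factors -0.05, citric acid cycle enzymes 0.02 and biogenesis regulators 0.04. In this contrast, nuclear and mitochondrial mRNAs for the chain were on opposite sides of the all-gene median, a difference that was not tested. Between the Subunit-Seq inputs both lay below it in Tg. The mRNAs of mitochondrial DNA had -0.61 there (0.04 and -1.20 in the replicates) and the members -0.48. In DD cells the mRNAs of mitochondrial DNA had 0.05.

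In DD cells the thapsigargin comparison rested on 1 library. The relative median was -0.49, but 0.25 from replicate 1 and -1.27 from replicate 2, and DD Tg replicate 2 is the library with the lowest share of reads on these genes. limma called 0 of 51 members and 0% of all genes in each direction, with 0 members and 11 genes higher and 14 lower among all genes under an unadjusted p of 0.05, and voom called 0. Only 6 members lay below the all-gene median in both replicates and 4 above, against 14.6% of all genes for each.

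Single members show the same split. COX8A, a small membrane subunit of complex IV, had 61.7 and 214 RPKM with DMSO and 71.6 and 31.4 with Tg (-1.26 ± 1.23, limma adjusted p = 1). CYC1 had 49.8 and 175 in DMSO and 75.9 and 23.2 in Tg (-1.13 ± 1.00), and NDUFB11 262 and 264 in DMSO and 301 and 61.8 in Tg (-0.94 ± 0.91). In each of the 3, replicate 1 was higher in Tg and replicate 2 lower. NDUFA5 was the highest member, at 0.45 ± 0.62, with 5.18 and 2.97 RPKM in DMSO and 7.47 and 4.41 in Tg, and was higher in both replicates. By complex, the relative medians in replicates 1 and 2 were 0.34 and -1.79 for complex III and 0.26 and -1.42 for complex IV.

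Values of COX6A1 were higher in DD Tg than in DD DMSO without overlap, 1 member against 8.59% of all genes, and those of NDUFV3 and COX6B1 were lower, 2 members against 4.14%. NDUFV3, a small accessory subunit beside the flavin site, had 17.0 and 18.7 RPKM in DMSO and 16.8 and 9.18 in Tg. COX6A1 had 13.8 and 17.7 in DMSO and 19.1 and 21.9 in Tg. Without DD Tg replicate 2, 23 members were higher (33.5% of all genes) and 2 lower (12.6% of all genes).

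In DMSO, DD cells could not be told from WT cells by these genes at 2 libraries per group. The relative median was 0.07 (0.01 and 0.18 in the replicates, and -0.20 to 0.32 when 1 library was left out), with 30 members above the all-gene median and 21 below. limma called 0 of 51 members and 0% of all genes in each direction, with 0 members and 36 genes higher and 32 lower among all genes under an unadjusted p of 0.05, and voom called 0. With the replicate number as a block, 0 members and 157 genes higher and 70 lower had an unadjusted limma p under 0.05. Values of 11 members were higher in DD without overlap, against 11.1% of all genes, and those of NDUFB8, NDUFB11, NDUFS8 and COX5A were lower, 4 members against 4.7%. NDUFA8, an accessory subunit on the side of the intermembrane space, had 38.6 and 59.9 RPKM in WT and 62.8 and 143 in DD (0.97 ± 0.82). NDUFS8 had 62.8 and 145 in WT and 53.7 and 55.1 in DD (-0.80 ± 0.91). Both differences were within 2 standard errors, and the count of 11 was 21.6% of the members.

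Under thapsigargin the genotypes gave a relative median of -0.16, with 0.52 in replicate 1 and -0.97 in replicate 2. limma called 0 members and 0% of all genes in each direction, with 0 members and 42 genes higher and 40 lower among all genes under an unadjusted p of 0.05, and voom called 0. NDUFS8 had 59.2 and 139.9 RPKM in WT Tg and 59.9 and 15.0 in DD Tg (-1.56 ± 0.91), and UQCRB, a small subunit of complex III near its ubiquinone site, 23.4 and 11.5 in WT Tg and 38.6 and 30.6 in DD Tg (1.02 ± 0.79). Values of NDUFB3 and UQCRB were higher in DD without overlap, 2 members against 10.2% of all genes, and those of NDUFV3 lower, 1 member against 6.06%. Without DD Tg replicate 2 there were 27 higher (34.0% of all genes) and 1 lower (12.2%).

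The test of whether the thapsigargin difference was itself different in DD and WT cells called 0 members in limma and 0% of all genes in each direction, with 11 genes higher and 10 lower among all genes under an unadjusted p of 0.05 and 0 members. Voom called 0 here as well. Its relative median was -0.20, from 0.54 in replicate 1 and -0.98 in replicate 2. In both replicates 2 members lay below the all-gene median and 5 above, against 16.6% of all genes for each.

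**Figure D4:**
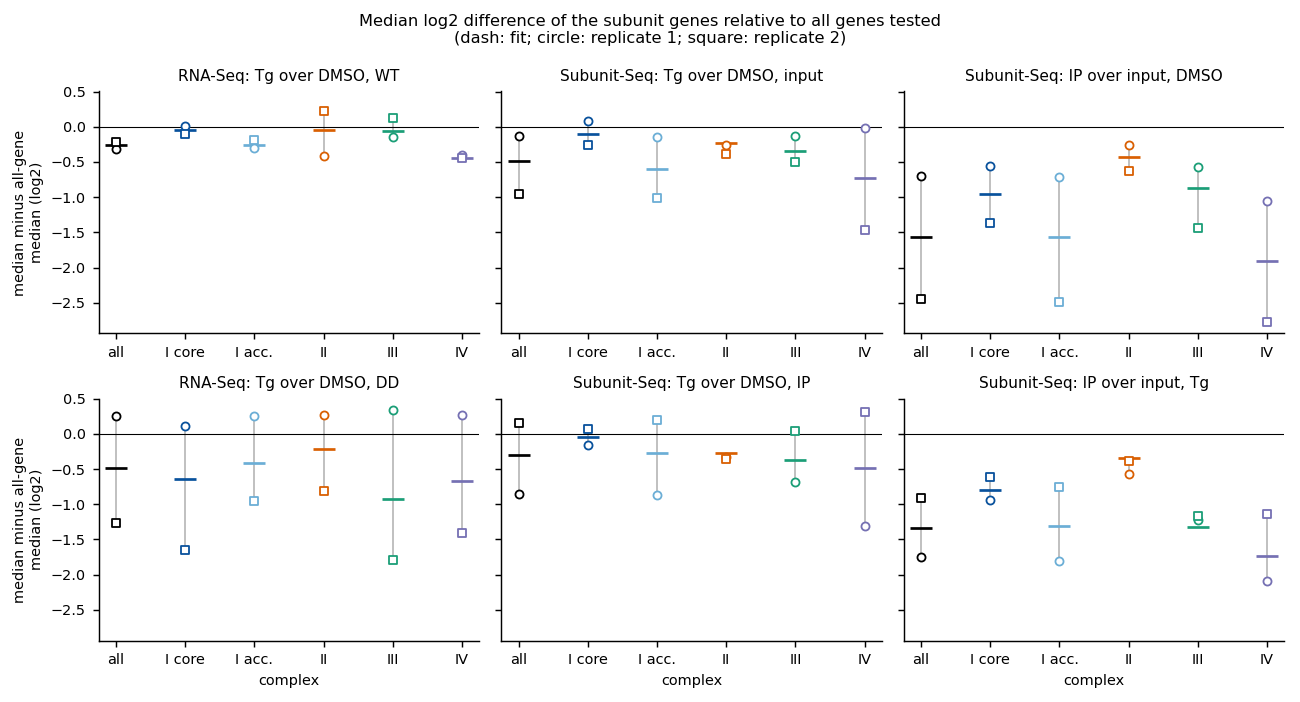
Relative median of the subunit genes of each complex (median log2 difference of the members minus that of all genes tested) in 6 comparisons. Dashes are the fit, circles replicate 1 alone and squares replicate 2 alone. IP against input lies below 0 for every complex in both replicates, while Tg against DMSO in DD cells has replicate 1 above 0 and replicate 2 below 0 for every complex.

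The m6A site lists gave a second readout on the same genes, with no replicates, no score and unknown depth. Sites on the strand of a member, or in a member of unknown strand, numbered 17 of 3000 in WT DMSO, 9 of 1572 in WT Tg, 10 of 1796 in DD DMSO and 50 of 5050 in DD Tg. These are 0.567%, 0.573%, 0.557% and 0.990% of each list. Members of known strand held 16, 9, 10 and 44 of them. The numbers of members with a site were 12, 9, 8 and 27. DD Tg had the most sites on members and also the longest list, and its share of sites on members was the highest of the 4.

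In all, 32 of the 57 members had a site in some list and 25 had none. Members with a site had a median level of 48.8 RPKM and those without one 33.7 RPKM. COX4I1, the subunit 4 of complex IV that is present in most tissues, and COX7A2, the form of subunit 7a used outside heart and muscle, had sites in all 4 lists. COX4I1 had 1 site in each WT list, 2 in DD DMSO and 5 in DD Tg, and COX7A2 had 1 in each list but DD Tg, where it had 2. NDUFA11, NDUFB11 and NDUFV3 had sites in 3 lists. Sites in 2 lists were found for NDUFA8, NDUFB4, NDUFB8, NDUFB10, NDUFV1, SDHA, UQCRC1, UQCRQ, COX5B, COX6A1, COX7B and COX8A. The 10 members with sites in DD Tg alone were NDUFA1, NDUFA7, NDUFA13, NDUFB9, NDUFS4, NDUFS5, NDUFS8, SDHB, UQCRFS1 and UQCRB. For NDUFB9, NDUFS5 and UQCRB the strand was not known. DD Tg is the longest list, and shares of all genes with a site are not given. These counts are therefore not read as a trait of the members. NDUFA2, NDUFA12, NDUFB1 and COX6C had sites in WT DMSO alone and NDUFA10 in WT Tg alone. NDUFA7 and NDUFA13 had sites although both were near 0 in RNA-Seq.

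**Figure D5:**
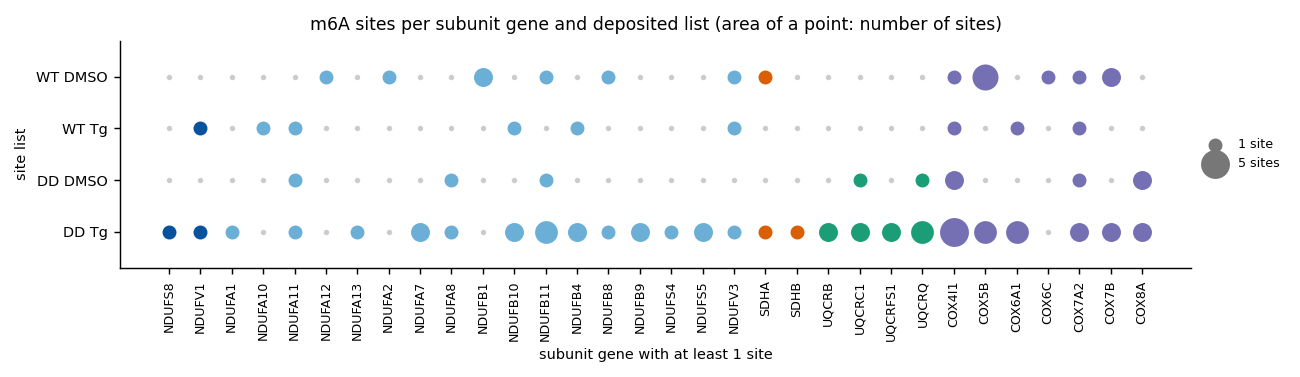
Number of m6A sites for each of the 32 subunit genes with a site (horizontal axis, coloured by complex) in each of the 4 lists (vertical axis). The area of a point shows the number, and a grey dot marks no site. COX4I1 and COX7A2 have points in all 4 rows, and the DD Tg row holds 27 genes.

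Some of these sites lay close to a listed start of the gene, meaning the nearest start in the promoter tables used. A listed start can lie inside the RefSeq span of the gene, as for NDUFB8, NDUFB11 and COX7A2. The NDUFB11 site 18 bases before its listed start is thus inside that span. Of 65 distinct sites on members, with overlapping entries counted once, 58 were on genes whose start and strand were given in the tables used, and 18 of these lay within 50 bases of the start and 5 within 2 bases. The share of all listed sites within 50 bases of a start is not given. The 5 sites within 2 bases are shown because they place the called base relative to the start, with the site of COX7A2 found in all 4 lists and the sites near the start of NDUFB11 and COX5B, which were called lower in the IP. Each is 15 bases of the RefSeq sequence of GRCh38, 5′ to 3′ on the strand of the gene, and the capital marks the called base. An entry of 2 bases that covers the called base counts as the same site.
COX8A, chr11:63974613-63974627, plus strand, in DD DMSO and DD Tg, at the start: cgcagccAttttggc
NDUFS4, chr5:53560632-53560646, plus strand, in DD Tg, at the start: tcctttcAtcctggc
NDUFA7, chr19:8321368-8321382, minus strand, in DD Tg, at the start: gcccttcAgtatcgc
NDUFB8, chr10:100529863-100529877, minus strand, in WT DMSO and DD Tg, 1 base from the start: agaagggAaacgtga
NDUFB4, chr3:120596331-120596345, plus strand, in WT Tg and DD Tg, 2 bases from the start: caggcgcAattgtgc
COX7A2, chr6:75243779-75243793, minus strand, in all 4 lists, 15 bases from the start: cgtggccAttttcgt
NDUFB11, chrX:47144672-47144686, minus strand, in DD Tg, 23 bases from the start: atctgtcAtggcggc
NDUFB11, chrX:47144713-47144727, minus strand, in DD DMSO, 18 bases before the start: cagtcgcAtttcttt
COX5B, chr2:97646080-97646094, plus strand, in WT DMSO and DD Tg, 25 bases from the start: ggacgcaAtggcttc
COX5B, chr2:97646089-97646103, plus strand, in DD Tg, 34 bases from the start: ggcttcaAggttact
COX5B, chr2:97646094-97646108, plus strand, in WT DMSO, 39 bases from the start: caaggttActtcgcg

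The called base was A at all 18 member sites inside the promoter windows of the tables, which run from 250 bases before to 50 after each start, as it was at all 336 such sites of any gene. The next base was a C at only 2 of the 18, and at 70 of the 334 sites of any gene with a known next base. The called base was at a listed start at 3 of the 18 (16.7%) and at 89 of the 336 (26.5%). It followed a C in the genome at all 3 and at 69 of the 89. Within 2 bases of a listed start lay 5 of the 18 (27.8%) and 123 of the 336 (36.6%). As background, an adenosine that is the first transcribed base can carry a second methyl group on its sugar (m6Am), and antibodies to m6A also bind this form. The lists do not separate the forms, and whether these sites are m6A or m6Am was not tested. Among members with a listed start, the sites at the start belong to COX8A, NDUFS4, which is needed for the assembly of the matrix arm of complex I, and NDUFA7. NDUFB9 has no listed start or strand and is not counted. Its DD Tg site at chr8:124539123 on the plus strand is the lower end of its RefSeq span.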

How the data were processed

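RNA-Seq and Subunit-Seq libraries of HEK293T cells were available as RPKM values deposited by the authors. m6A-eCLIP was available as deposited lists of site positions, from 16 libraries. The build GRCh38 and the tools BWA, cutadapt, DESeq2 and STAR are named in the submitters' processing notes. The gene counter, annotation and site caller are not given in the sources used here, nor is how reads shared by overlapping genes were assigned.

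Values were analysed as log2(RPKM + 1), which understates differences of low genes. Genes needed a mean of 1 RPKM over the 8 RNA-Seq libraries or over the 4 inputs. limma 3.58.1 in R 4.3.3 was fitted over all 4 groups of an assay with an intensity trend. Two-sided p-values were adjusted by Benjamini-Hochberg over every gene tested, and a gene was called at an adjusted p under 0.05. The RNA-Seq fit used no replicate block (4 residual degrees of freedom), and the Subunit-Seq fit had one (3 residual degrees of freedom), since its tables were deposited per replicate. The prior degrees of freedom were 5.73 in RNA-Seq and infinite in Subunit-Seq. The Subunit-Seq SEs and p-values thus rest on the intensity trend over all genes and do not measure the spread of a single gene. Same-numbered RNA-Seq libraries deviated together in every pair of groups (correlations across genes from 0.134 to 0.864). Values per replicate therefore pair the numbers. The main RNA-Seq test ignored this pairing, and results of a fit with the block are given beside it. In Subunit-Seq the correlations ran from 0.002 (input DMSO with IP DMSO) to 0.51, so there the block rests on the separate tables and not on this check. Whole reads and gene lengths were recovered from the steps of the RPKM values, within a tolerance of 0.02. The scripts were tested on simulated data.

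A relative median is the median log2 difference of the members minus that of all genes tested, and values per replicate use the libraries of 1 number alone. Values of 2 groups do not overlap where both values of one lie above both of the other. Repeated site entries were dropped (1 and 3 in the WT lists with DMSO and Tg, 3 and 11 in the DD lists), and sites were assigned to genes by position and strand, or by position alone for 8 members whose strand was not known. All 57 members matched RefSeq by symbol, and 49 had a start in the promoter tables.

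The members and lists were chosen with earlier results of these data known. Named are, per comparison, the called members, in each complex the highest, the lowest and the most abundant member, all of complex II, members not tested, each member with a site and, of other lists, the called gene furthest from 0, of which the text prints a part. Further members are named for values that do not overlap, chosen after their values were seen. Alternatives were another pseudocount and filter, median-ratio scaling, voom, the replicate block and leaving out each library.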

Additional observations from a re-analysis of the deposited data

Results flagged for a closer look

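For NDUFV3, SDHD and COX6A1, of the 51 members tested, the thapsigargin difference had the same sign in both replicates of each genotype. That sign was opposite in DD and WT cells. For SDHD the difference of differences was 0.54 on the log2(RPKM + 1) scale, with an SE of 1.35. Its WT values went from 26.4 and 6.64 RPKM in DMSO to 19.5 and 5.64 in Tg, and its DD values from 17.3 and 5.64 to 23.1 and 5.93. For COX6A1, a subunit of complex IV, the difference of differences was 0.89, with an SE of 1.22. Its WT values went from 11.0 and 54.1 RPKM to 10.0 and 28.1, and its DD values from 13.8 and 17.7 to 19.1 and 21.9. For NDUFV3, an accessory subunit of complex I, the difference of differences was -0.51, with an SE of 0.92. Its WT values went from 17.4 and 23.3 RPKM to 17.6 and 23.9, and its DD values from 17.0 and 18.7 to 16.8 and 9.18, so that 3 of its 4 steps were small. The interaction in limma called none of the 3 genes (adjusted p = 1 for each, unadjusted 0.697 for SDHD, 0.481 for COX6A1 and 0.594 for NDUFV3).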

How the results depend on the processing

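No member comparison with a call changed sign under any alternative. Of the 5 members called in IP against input in DMSO, NDUFB11 was called in 9 and COX5B in 8 of 14 alternatives (adjusted p 0.0139 to 0.385 and 0.021 to 0.494), NDUFA3 in 3 of 14, and SDHA and NDUFS1 in 1 each. Without the replicate block their adjusted p was 0.114 to 0.136. The count of 5 was 2 with a pseudocount of 0.1 and 0 without the filter, with voom or without the replicate block, and 0 to 9 when 1 library was left out. The count of 1 in Tg was 0 without the filter, with voom or without the block, 4 with median-ratio scaling, and 0 to 4 when 1 library was left out. The relative median of IP against input stayed below 0 in all alternatives, from -2.25 to -0.78 in DMSO and from -1.70 to -0.67 in Tg, the last of these without the filter. In RNA-Seq, leaving out 1 library gave -0.52 to 0.19 for WT Tg, -0.81 to 0.03 for DD Tg, -0.20 to 0.32 for DD against WT in DMSO, -0.54 to 0.29 in Tg, and -0.68 to 0.36 for the interaction. Their direction thus turned with the library left out. These fits had no replicate block, so they also set unequal replicate numbers against each other. Without the filter WT Tg gave -0.13. The replicate block gave the same relative medians for RNA-Seq (-0.26, -0.49 and 0.07 for WT Tg, DD Tg and DD against WT in DMSO) and 0 members called. With it, 0 members had an unadjusted limma p under 0.05 in any RNA-Seq comparison. Among all genes 33 were higher and 34 lower in WT Tg, and 31 and 46 in DD Tg. DD against WT gave 157 and 70 in DMSO and 141 and 113 in Tg, and the interaction 28 and 39. With that block, and leaving out DD Tg replicate 2, the relative medians were 0.20 for DD Tg, 0.55 for DD against WT in Tg and 0.44 for the interaction. For input Tg against DMSO the range was -0.95 to -0.11, for IP Tg against DMSO -0.82 to 0.14, and for the Subunit-Seq interaction -0.28 to 0.74. Alternatives added after seeing the data moved the counts without overlap, to 23 higher for DD Tg, 27 higher for DD against WT in Tg and 2 higher for input Tg. With 2 libraries per group the standard errors are wide. Low members are limited by depth, since a count of 0 allows up to 3 reads.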
